A study of Mus musculus with 12 samples.

Results

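Nptx1, Syt14, Erc2, Gprin1 and Klhl1 are 5 genes best known from neurons, and their transcripts were much less abundant in tumours of CR705 cells labelled as knockouts of the aryl hydrocarbon receptor (AHRKO) than in tumours of wild-type (WT) CR705 cells. They were chosen by symbol out of 43432 genes in the count table because their counts were much lower, in every library, in the AHRKO group. The AHRKO to WT differences of these 5 genes are therefore given as a description, without a test. The choice had no numeric threshold.

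CR705 is a mouse pancreatic cancer line, and total RNA came from 6 tumour samples labelled AHRKO and 6 labelled WT, after selection of polyadenylated RNA. The RNA protocol speaks of tumours, whereas the texts on growth and treatment speak of cells in plates given test compounds, and no sample carries a compound in its labels. The sources used here do not state how the receptor was disrupted, whether the AHRKO line was 1 clone, or the strain, age and sex of the hosts. They also do not state whether replicates were separate animals, and p-values measure only the spread between these samples.

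The 5 proteins act at different places in a neuron. Neuronal pentraxin 1 (Nptx1) is secreted and helps to gather AMPA-type glutamate receptors at excitatory synapses. ERC2, also called CAST, is a scaffold of the presynaptic active zone, the patch of membrane where vesicles fuse. Synaptotagmins are membrane proteins with C2 domains that act in vesicle traffic, and SYT14 belongs to the members thought to work without binding calcium. GPRIN1 binds activated G proteins of the Gi and Go class and promotes neurite outgrowth, and KLHL1 is an actin-binding kelch protein of the brain. Outside the nervous system many neuronal genes are held silent by the repressor REST with its corepressors. The aryl hydrocarbon receptor (AHR) is a ligand-activated transcription factor that binds DNA with its partner ARNT at sites with the core GCGTG.

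Because the sample labels differ in that receptor, the RefSeq promoter windows of the genes are shown (assembly GRCm38.p6, mm10). Each window runs from 250 bases before to 50 bases after the RefSeq gene start, 5′ to 3′ on the strand of the gene, and 4 of the 5 genes had an entry. For Erc2 and Klhl1 that start differs from the gene coordinates given below, which come from another annotation. Capitals mark GCGTG, searched on both strands.
Syt14 (chr1:193035726-193036025, minus strand): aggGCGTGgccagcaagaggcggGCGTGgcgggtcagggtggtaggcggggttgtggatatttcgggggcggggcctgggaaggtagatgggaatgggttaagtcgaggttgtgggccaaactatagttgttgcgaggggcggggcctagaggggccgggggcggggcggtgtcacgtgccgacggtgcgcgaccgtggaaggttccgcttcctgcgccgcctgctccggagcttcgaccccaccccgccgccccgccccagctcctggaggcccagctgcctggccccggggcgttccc
Erc2 (chr14:27622157-27622456, plus strand): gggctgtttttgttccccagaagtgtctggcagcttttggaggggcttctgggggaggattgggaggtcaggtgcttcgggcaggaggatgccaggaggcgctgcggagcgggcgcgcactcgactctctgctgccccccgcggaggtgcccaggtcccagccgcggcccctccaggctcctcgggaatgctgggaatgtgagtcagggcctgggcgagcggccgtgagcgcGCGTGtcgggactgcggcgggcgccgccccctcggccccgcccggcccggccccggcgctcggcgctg
Gprin1 (chr13:54749825-54750124, minus strand): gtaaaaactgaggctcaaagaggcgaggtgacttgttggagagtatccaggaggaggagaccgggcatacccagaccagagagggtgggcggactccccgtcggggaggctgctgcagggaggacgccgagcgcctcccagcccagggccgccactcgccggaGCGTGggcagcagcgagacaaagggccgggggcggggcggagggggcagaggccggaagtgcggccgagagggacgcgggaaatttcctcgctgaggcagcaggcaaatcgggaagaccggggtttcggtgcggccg
Klhl1 (chr14:96518985-96519284, minus strand): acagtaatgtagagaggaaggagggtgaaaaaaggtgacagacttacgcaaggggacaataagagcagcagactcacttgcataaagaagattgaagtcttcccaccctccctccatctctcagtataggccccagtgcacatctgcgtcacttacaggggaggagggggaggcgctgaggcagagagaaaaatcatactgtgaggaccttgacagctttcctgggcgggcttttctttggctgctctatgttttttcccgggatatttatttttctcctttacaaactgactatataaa
The Syt14 window held GCGTG at positions 4 and 24, the Erc2 window at position 233 and the Gprin1 window at position 164, counted from 1 at the 5′ end of the window, and all 4 matches were on the strand of the gene. The Klhl1 window held no GCGTG on either strand. Of 32851 mouse promoter windows of the same length, 32.4% held at least 1 GCGTG and 11.1% held 2 or more, so 3 of 4 windows with a match is a description and not evidence of a binding site. CAGCACC and GGACAGC, the left and right parts of the element that REST binds, occurred in 7.14% and 6.56% of all windows and in 0 of the 4 shown. The windows of Syt14, Erc2 and Gprin1 were rich in G and C, at 71.3%, 73.7% and 68.7%, with 29, 31 and 27 CpG dinucleotides. The Klhl1 window had 47.0% G and C and 5 CpG dinucleotides, and the medians of all windows were 52.7% and 7.0.

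Library totals ran from 14772343 to 19944273 counts in AHRKO samples and from 19293174 to 35881469 counts in WT samples, and 15449 genes had enough counts to be tested. Levels are given as CPM, counts divided by the scaled library total. With edgeR's quasi-likelihood test and a Benjamini-Hochberg adjusted p under 0.05, 15.9% of tested genes rose in AHRKO tumours and 13.6% fell, and the median log2 fold change, AHRKO over WT, was 0.02. Ahr itself was measured at 62.5 to 143 CPM in AHRKO tumours and 101 to 125 CPM in WT tumours, a log2 fold change of -0.13 ± 0.17 (SE, adjusted p = 0.606 by edgeR), so the Ahr level did not check the genotype labels.

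Markers of other cell types differed between the samples. AHRKO replicate 1 stood apart, with the lowest summed tumour epithelial markers, 700 CPM, against 2982 to 4774 CPM in the other AHRKO samples and 3481 to 4948 CPM in WT samples. It also had the highest sums of 10 fibroblast markers, 59811 CPM against 9602 to 22557 CPM in the other AHRKO samples and 16691 to 41059 CPM in WT samples, and of 10 endothelial markers, 2068 CPM against 395 to 633 CPM and 364 to 812 CPM. All 12 leukocyte markers rose in AHRKO tumours, with a median log2 fold change of 1.70 and sums of 576 to 3326 CPM in AHRKO against 339 to 601 CPM in WT samples. Here and below, limma-voom was run with sample quality weights, so libraries did not count equally in that fit. Of the 12 epithelial markers 0 fell by edgeR, and 4 were lower at an unadjusted p under 0.05. DESeq2 and limma-voom each called 2 lower, and without AHRKO replicate 1 edgeR called 1 lower (Krt19). Fibroblast and endothelial markers gave 0 calls in either direction by edgeR and 0 at an unadjusted p under 0.05. For fibroblast markers DESeq2 called 0, limma-voom called 4 lower, and without AHRKO replicate 1 edgeR called 7 of 10 lower, while endothelial markers stayed at 0 calls with each of these. The part of these cell types in the values of the 5 genes was not tested, and those values are also given without AHRKO replicate 1. In bulk RNA, fewer cells of a type and less RNA per cell cannot be told apart.

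**Figure D1:**
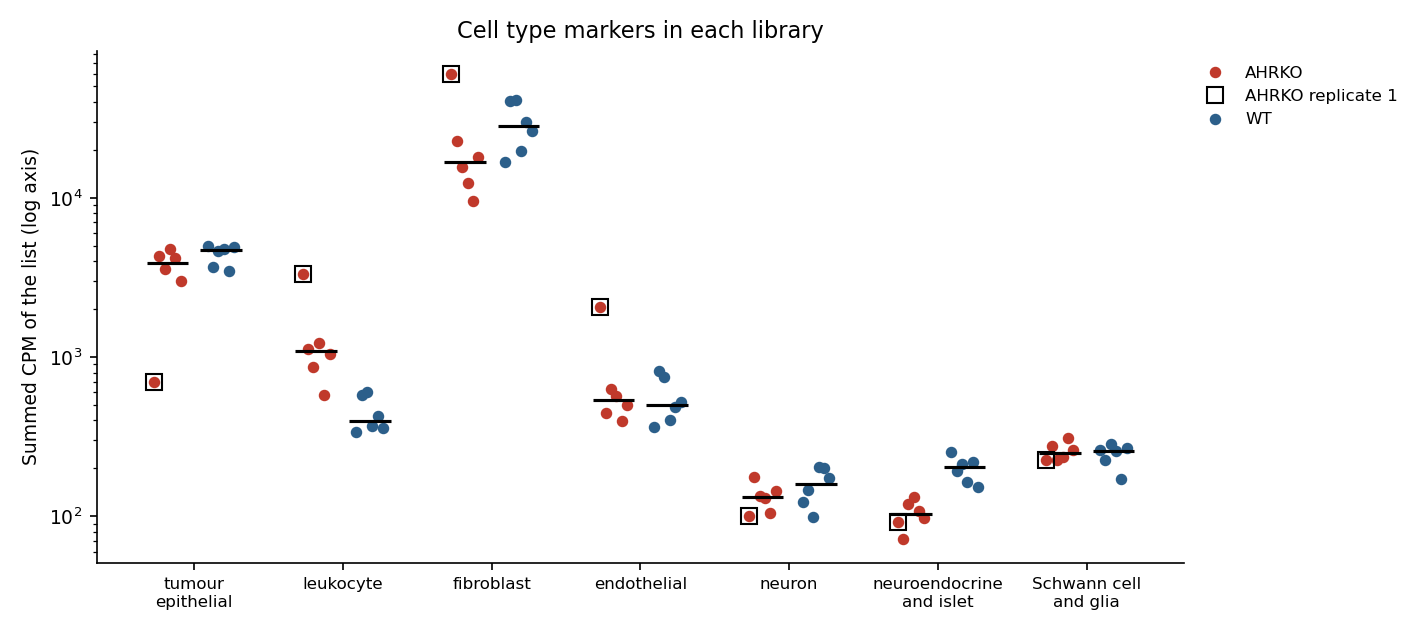
Summed CPM of each marker list (log axis) in the 6 AHRKO and 6 WT libraries, with bars at the group medians and a square around AHRKO replicate 1. AHRKO replicate 1 was lowest for epithelial markers at 700 CPM and highest for leukocyte, fibroblast and endothelial markers, and the neuroendocrine and islet sums of AHRKO samples, 71.6 to 133 CPM, lay below those of WT samples, 152 to 255 CPM, sums made up mostly of Ptprn.

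All 5 genes had enough counts to enter the test, and they did so through their WT counts. In each of the 5, all 6 AHRKO libraries lay below all 6 WT libraries, a pattern that 7.35% of tested genes showed. Since that pattern chose them, nothing is read from the count. Their log2 fold changes ran from -5.77 to -2.88, and 50 of the 15449 tested genes, or 0.324%, had a log2 fold change at or below that of Erc2, the smallest of the 5 in size. In WT tumours the 5 were of middle to low abundance, between the 32.7 and 44.4 percentiles of tested genes by mean CPM.

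**Figure D2:**
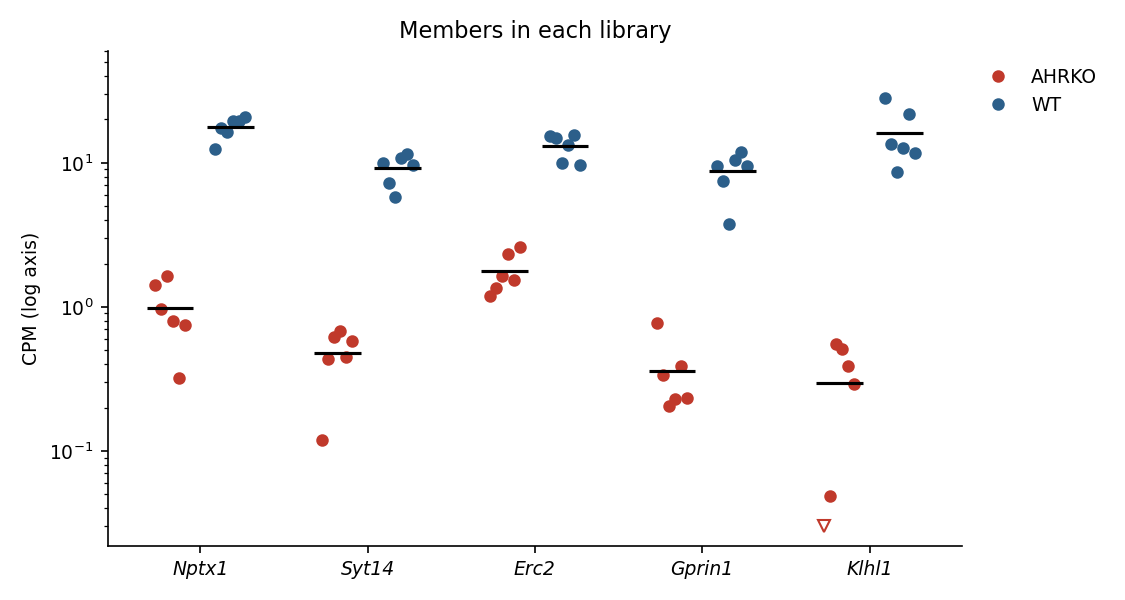
CPM of the 5 genes (log axis) in each library, AHRKO in red and WT in blue, with bars at group means; the open triangle is the AHRKO library with 0 Klhl1 counts. All AHRKO points lie below all WT points of the same gene, with the closest approach in Erc2, 2.60 against 9.61 CPM.

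Nptx1 (ENSMUSG00000025582, mm10 chromosome 11, 119538719 to 119547753, minus strand) encodes the secreted pentraxin. Its lowest, median and highest levels were 0.322, 0.883 and 1.65 CPM in AHRKO tumours, against 12.6, 18.4 and 20.7 CPM in WT tumours. AHRKO replicate 5 was the lowest and AHRKO replicate 3 the highest of its group, and the highest AHRKO value was 7.62-fold below the lowest WT value. The means were 0.985 ± 0.482 CPM in AHRKO and 17.7 ± 2.94 CPM in WT (SD, n = 6 each), or 5.57% of the WT level, with a log2 fold change of -4.16 ± 0.31 (SE). Without AHRKO replicate 1 it was -4.30. In reads, the 6 AHRKO libraries together held 100 counts and the 6 WT libraries 2469. Nptx1 was the steadiest of the 5 across WT tumours, with a coefficient of variation of 16.6%.

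Erc2 (ENSMUSG00000040640, chromosome 14, 27622428 to 28478537, plus strand), the active zone scaffold, spans 856110 bases and showed the smallest difference of the 5. Its lowest, median and highest levels were 1.19, 1.60 and 2.60 CPM in AHRKO tumours, against 9.61, 14.1 and 15.5 CPM in WT tumours. The highest AHRKO sample, replicate 6, was 3.69-fold below the lowest WT sample, which was also a replicate 6. Means of 1.78 ± 0.564 CPM in AHRKO and 13.1 ± 2.70 CPM in WT (SD, n = 6 each) gave a log2 fold change of -2.88 ± 0.23 (SE), and -2.78 without AHRKO replicate 1. Of all 5, Erc2 kept the largest share of its WT level, 13.6%. An antisense gene, Gm45645, overlaps 106 bases or 1.09% of the Erc2 exons, and the sources used here do not state whether counting used strand.

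Syt14 (ENSMUSG00000016200, chromosome 1, 192891233 to 193035775, minus strand), the synaptotagmin, had lowest, median and highest levels of 0.119, 0.514 and 0.684 CPM in AHRKO tumours, against 5.83, 9.77 and 11.5 CPM in WT tumours. AHRKO replicate 1 was the lowest of its group and WT replicate 3 the lowest of its own, and that WT value was 8.52-fold above the highest AHRKO value. Its means were 0.481 ± 0.202 CPM in AHRKO and 9.15 ± 2.18 CPM in WT (SD, n = 6 each), with a log2 fold change of -4.24 ± 0.32 (SE), or -4.03 without AHRKO replicate 1. Syt14 retained 5.26% of its WT level, from 49 counts in the AHRKO libraries together and 1259 in the WT libraries.

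Gprin1 (ENSMUSG00000069227, chromosome 13, 54736671 to 54749874, minus strand), the partner of Gi and Go proteins in neurite growth, had lowest, median and highest levels of 0.206, 0.285 and 0.771 CPM in AHRKO tumours, against 3.78, 9.55 and 11.8 CPM in WT tumours. AHRKO replicate 1 was the highest of its group, the reverse of its place for Syt14, and WT replicate 3 was again the lowest WT sample. The groups were separated by 4.89-fold at their closest. Mean levels were 0.360 ± 0.214 CPM in AHRKO and 8.77 ± 2.83 CPM in WT (SD, n = 6 each), with a log2 fold change of -4.58 ± 0.38 (SE), or -4.94 without AHRKO replicate 1. The AHRKO level rests on 37 counts over 6 libraries, between 3 and 13 in each.

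Klhl1 (ENSMUSG00000022076, chromosome 14, 96102736 to 96519102, minus strand), the kelch protein of the brain, had the largest difference of the 5 and the widest spread. Its lowest, median and highest levels were 0, 0.338 and 0.550 CPM in AHRKO tumours, against 8.62, 13.1 and 28.2 CPM in WT tumours. AHRKO replicate 1 had 0 counts, which allows a level of up to 0.178 CPM (3 counts, counting error only), and AHRKO replicate 2 had 1 count. WT replicate 1 was the highest WT sample and 3.27-fold above the lowest, replicate 3. With means of 0.298 ± 0.232 CPM in AHRKO and 16.1 ± 7.39 CPM in WT (SD, n = 6 each), Klhl1 was at 1.85% of its WT level and its log2 fold change was -5.77 ± 0.57 (SE), or -5.52 without AHRKO replicate 1. The coefficient of variation across WT tumours was 45.8%, the largest of the 5.

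To compare levels between genes, CPM was divided by the length of the merged exons in kilobases. On that scale the WT order was Nptx1 at 3.39 ± 0.564, Klhl1 at 2.43 ± 1.11, Gprin1 at 2.02 ± 0.651, Erc2 at 1.35 ± 0.278 and Syt14 at 0.767 ± 0.183 CPM per kilobase (SD, n = 6). The ranges of Nptx1 and Klhl1, of Klhl1 and Gprin1, and of Gprin1 and Erc2 overlapped. Within single WT libraries the first of each pair lay above the second in 5, 4 and 5 of 6. These orders were not tested. Erc2 lay above Syt14 in 6 of 6 WT libraries, with ranges that did not overlap, from 0.988 CPM per kilobase upward against at most 0.961. In AHRKO tumours the order was Nptx1 at 0.189, Erc2 at 0.183, Gprin1 at 0.0829, Klhl1 at 0.0448 and Syt14 at 0.0403 CPM per kilobase, and every neighbouring pair overlapped. By mean, Klhl1 came next after Nptx1 in WT tumours and next before Syt14, at the low end, in AHRKO tumours. It lay above Syt14 in only 3 of 6 AHRKO libraries.

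Within the WT group the 5 genes did not all vary together. Pearson's r of log2 CPM over the 6 WT libraries was computed for all 10 pairs, and 8 were positive. Syt14 and Gprin1 ranked the 6 libraries identically, with r = 0.96 (exact permutation p = 0.00278, adjusted p = 0.0278 over 10 pairs, two-sided) and Spearman's rho = 1.0 (exact permutation p = 0.00278, adjusted p = 0.0278). That p is the smallest that 6 libraries can give, and r was 0.97 without the pair of libraries farthest from the Syt14 median. Erc2 and Klhl1 had r = 0.79 (exact permutation p = 0.0167, adjusted p = 0.0833) and rho = 0.89 (exact permutation p = 0.0333, adjusted p = 0.167), and r was 0.80 without the farthest libraries, which did not pass the correction. The adjusted permutation p of every other pair was at least 0.324. Nptx1 had negative r with Erc2, -0.35, and with Klhl1, -0.49, but without the farthest libraries these were 0.69 and 0.75, so neither sign is settled. In every pair the libraries left out were those farthest from the median of the gene named first. Leaving out by the other gene was not tried, and r over so few remaining libraries can swing widely. Nptx1 with Syt14 and with Gprin1 moved likewise, to 0.996 without the farthest libraries against 0.22 in all 6, and to 0.95 against 0.23. Erc2 with Gprin1 had r = 0.55 in all 6 and 0.0064 without them, Syt14 with Klhl1 0.65 and 0.17, and Gprin1 with Klhl1 0.67 and 0.17.

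The WT libraries lowest for Syt14 and Gprin1 were replicate 3, with 5.83 and 3.78 CPM, and replicate 2, with 7.23 and 7.45 CPM. The same libraries had the highest fibroblast sums of the WT group, 41059 and 40466 CPM against 16691 to 30045 CPM in the other 4, and the highest leukocyte sums, 601 and 578 CPM against 339 to 429 CPM. Their epithelial sums were 4600 and 3695 CPM, within the range of the other WT libraries. The part of these markers in the relation was not tested.

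**Figure D3:**
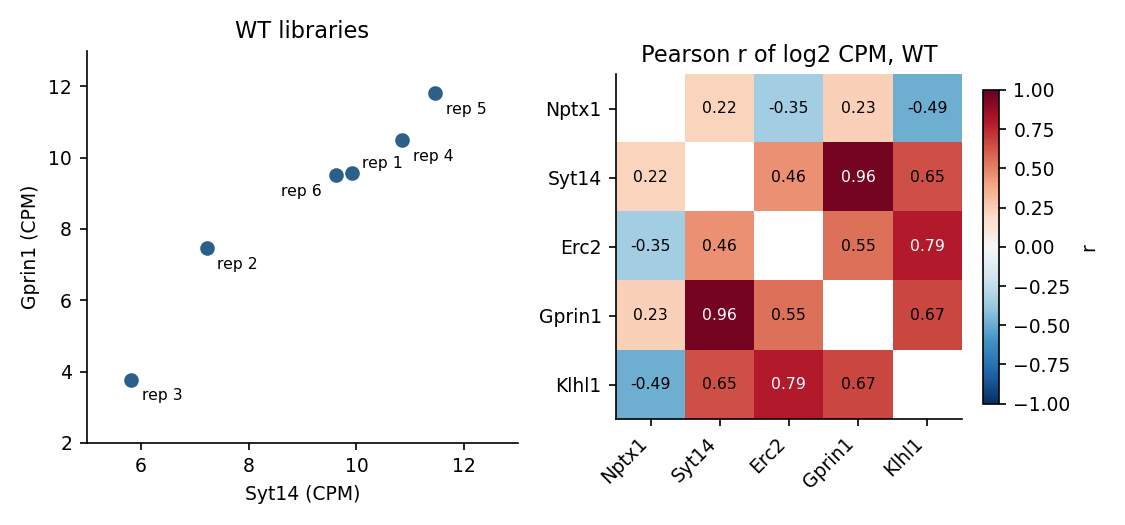
Left, Gprin1 against Syt14 (CPM) in the 6 WT libraries, which fall in the same order on both axes from replicate 3 to replicate 5. Right, Pearson's r of log2 CPM between each pair of the 5 genes over the 6 WT libraries, with 0.96 for Syt14 with Gprin1. The negative values are -0.35 and -0.49, for Nptx1 with Erc2 and Klhl1. They turn positive, 0.69 and 0.75, without the pair of libraries farthest from the Nptx1 median.

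The wider gene families of the 5, synaptic vesicle genes and the REST complex were then examined. They made up 7 pathway lists, from which the 5 genes themselves were left out. The REST list, which is no family of the 5, had the largest fallen share, 8 of 20 genes (40.0%), and is counted in the total. Over the lists together, 18 of 155 tested genes rose (11.6%) and 37 fell (23.9%) in AHRKO tumours, with a median log2 fold change of -0.16. Of all tested genes 15.9% rose and 13.6% fell. The lists were chosen with earlier results of these data known, so these shares are a description and not a test. The lists held genes that moved in both directions, and their lowest log2 fold changes, -4.08 for Snap25 and -3.95 for Pclo, were near those of Nptx1 and Syt14. With limma-voom Snap25 and Pclo were at -4.60 and -4.56, below Nptx1 at -4.33 and Syt14 at -4.10. The plot of log2 fold changes by list shows where the 5 genes lie relative to their relatives.

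**Figure D4:**
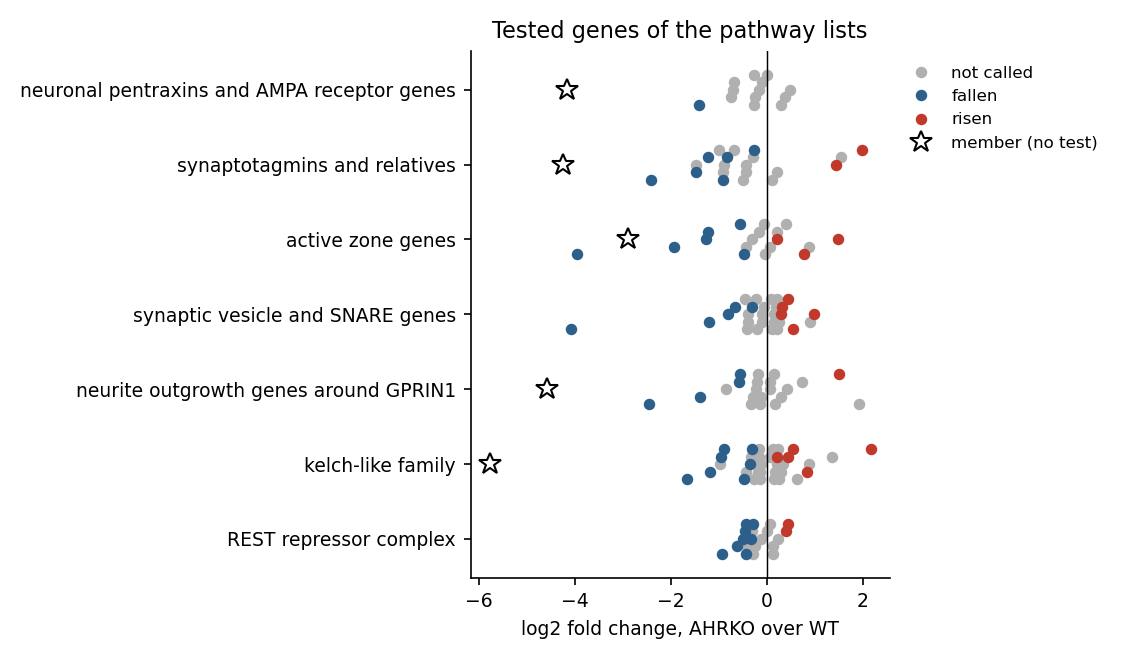
Log2 fold change, AHRKO over WT, of each tested gene in the 7 pathway lists, coloured by call at an adjusted p under 0.05 (edgeR), with stars for the 5 chosen genes, which carry no test. The stars lie between -5.77 and -2.88, and the lowest other points are Snap25 at -4.08 and Pclo at -3.95.

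Among neuronal pentraxins and AMPA receptor genes, 13 of 20 were tested, and 1 fell (7.69%) and 0 rose by edgeR. At an unadjusted p under 0.05 there were 2 lower and 0 higher, with DESeq2 1 lower and 0 higher, and with limma-voom 2 lower and 0 higher. The gene that fell was Gria4, which encodes an AMPA receptor subunit, at 0.776 ± 0.342 CPM in AHRKO and 2.09 ± 0.775 CPM in WT tumours (SD, n = 6 each), a log2 fold change of -1.41 ± 0.34 (adjusted p = 0.00927, edgeR). Nptx2, the closest relative of Nptx1, was at 0.949 ± 0.629 CPM in AHRKO and 1.59 ± 0.504 CPM in WT tumours, a log2 fold change of -0.75 (adjusted p = 0.189, edgeR), and the pentraxin receptor gene Nptxr was at 15.1 ± 3.51 CPM and 16.1 ± 2.95 CPM, a log2 fold change of -0.10 (adjusted p = 0.717, edgeR). Cacng4 and Cacng7, for auxiliary subunits of AMPA receptors, had log2 fold changes of -0.71 and -0.68 (adjusted p = 0.120 and 0.296, edgeR), and Cacng3 and Cacng5 had 0 counts in all 12 libraries. The median of the list was -0.24. Without AHRKO replicate 1, 4 genes passed, Nptx2 at -1.12, Gria4 at -1.64, Cacng7 at -1.30 and Dlg4 at -0.65, and without WT replicate 4 there were 2.

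Of synaptotagmins and relatives, 20 of 28 were tested, 6 fell (30.0%) and 2 rose (10.0%), with a median log2 fold change of -0.59. Sytl5, a Rab effector of the synaptotagmin-like group, was at 0.948 ± 0.355 CPM in AHRKO and 5.09 ± 1.47 CPM in WT tumours, a log2 fold change of -2.41 ± 0.31 (adjusted p = 0.000389, edgeR). Syt7, a calcium sensor of slow vesicle release, was at 2.21 ± 0.651 CPM in AHRKO and 5.18 ± 0.733 CPM in WT tumours, a log2 fold change of -1.22 ± 0.22 (adjusted p = 0.00208, edgeR). Sytl2 fell by 1.47 and Syt12, Syt17 and Esyt2 by 0.92, 0.82 and 0.27 on the log2 scale. Sytl1 and Sytl3, relatives that bind Rab proteins, rose by 1.44 and 1.98 on the log2 scale (adjusted p = 0.00402 and 0.0161, edgeR). Syt16, a paralog of Syt14, was at 1.25 ± 1.46 CPM in AHRKO and 3.46 ± 0.971 CPM in WT tumours, with a log2 fold change of -1.46 (adjusted p = 0.138, edgeR). It was looked at for its kinship with Syt14, outside the rule for named genes.

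Of active zone genes, 18 of 24 were tested, 6 fell (33.3%) and 3 rose (16.7%), with a median log2 fold change of -0.12. Pclo, which encodes piccolo, a giant scaffold that binds ERC2, had lowest, median and highest levels of 0, 0.0297 and 0.339 CPM in AHRKO tumours against 0.979, 1.32 and 3.38 CPM in WT tumours. The groups did not overlap, and the log2 fold change was -3.95 ± 0.68 (adjusted p = 0.00173, edgeR). Its AHRKO level rests on 0 to 7 counts per library, with 0 in AHRKO replicates 3, 4 and 6, so its size is imprecise. Unc13b, for a vesicle priming protein, was at 43.8 ± 21.8 CPM in AHRKO and 168 ± 35.2 CPM in WT tumours, a log2 fold change of -1.94 ± 0.34 (adjusted p = 0.00198, edgeR). Rims2, a RIM scaffold that binds ERC proteins, fell by 1.22 (adjusted p = 0.0137, edgeR), and Ppfibp1, a liprin, fell by 0.57 (adjusted p = 0.00847, edgeR), both on the log2 scale. Erc1, the widely expressed paralog of Erc2, was at 97.5 ± 24.6 CPM in AHRKO and 135 ± 14.4 CPM in WT tumours, a log2 fold change of -0.47 ± 0.16 (adjusted p = 0.0375, edgeR). The liprin genes Ppfia1, Ppfia4 and Ppfibp2 rose, by 0.21, 1.49 and 0.77 on the log2 scale, but only 1 gene of the list rose when any of WT replicates 1, 2, 4, 5 or 6 or AHRKO replicates 2 or 6 was left out.

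Of synaptic vesicle and SNARE genes, 28 of 35 were tested, 5 fell (17.9%) and 5 rose (17.9%), with a median of 0.02. Snap25, a SNARE protein of the presynaptic membrane, had lowest, median and highest levels of 0, 0.201 and 0.684 CPM in AHRKO tumours against 2.76, 4.24 and 5.84 CPM in WT tumours. The groups did not overlap, and the log2 fold change was -4.08 ± 0.54 (adjusted p = 0.000425, edgeR), close in size to those of Nptx1 and Syt14. The AHRKO level of Snap25 rests on 0 to 12 counts per library. Stxbp2, for a syntaxin-binding protein used outside neurons, fell by 0.66 (adjusted p = 0.000812, edgeR), and Syn1, for synapsin 1, fell by 1.20 (adjusted p = 0.00652, edgeR), both on the log2 scale. Napb and Stx1a also fell, and Syngr2, Stxbp6, Vamp3, Stx4a and Stx2, most of them used in secretion outside neurons, rose by 0.30 to 0.99 on the log2 scale. The count of risen genes was 3 without WT replicate 1 or AHRKO replicate 4 and 2 without WT replicate 6, and the count of fallen genes was 3 without WT replicates 4 or 5 or AHRKO replicate 2.

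Of neurite outgrowth genes around GPRIN1, 21 of 27 were tested, 4 fell (19.0%) and 1 rose (4.76%), with a median of -0.13. Gap43, a growth cone protein, was at 0.239 ± 0.184 CPM in AHRKO and 1.37 ± 0.703 CPM in WT tumours, a log2 fold change of -2.45 ± 0.51 (adjusted p = 0.00454, edgeR). Ncam1, a neural cell adhesion molecule, fell by 0.55 (adjusted p = 0.00444, edgeR), Dpysl3 by 0.58 (adjusted p = 0.0194, edgeR) and Stmn4 by 1.39 on the log2 scale. Dclk1, a microtubule-binding kinase, was at 154 ± 41.6 CPM in AHRKO and 54.0 ± 19.9 CPM in WT tumours, a log2 fold change of 1.51 ± 0.25 (adjusted p = 0.00152, edgeR). The count of risen genes was 2 without WT replicate 3 or AHRKO replicate 3, and 3 without AHRKO replicate 5.

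In the kelch-like family 35 of 43 were tested, 7 fell and 5 rose, with a median of -0.12. Klhl26 was at 35.5 ± 3.56 CPM in AHRKO and 65.8 ± 9.15 CPM in WT tumours, a log2 fold change of -0.89 ± 0.10 (adjusted p = 0.000192, edgeR). Klhl5, close kin of Klhl1, moved the other way from it, at 65.5 ± 5.97 CPM in AHRKO and 45.1 ± 3.73 CPM in WT tumours, a log2 fold change of 0.54 ± 0.08 (adjusted p = 0.000857, edgeR). Klhl30 rose by 2.16 (adjusted p = 0.00166, edgeR) and Klhl22 by 0.84 (adjusted p = 0.0052, edgeR) on the log2 scale. Klhl4, another close relative of Klhl1 and outside the rule for named genes, was at 2.91 ± 1.98 CPM in AHRKO and 2.48 ± 0.826 CPM in WT tumours (adjusted p = 0.682, edgeR).

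All 20 genes listed for REST and its corepressor complexes were tested, and 8 fell (40.0%) and 2 rose (10.0%), with a median log2 fold change of -0.28. Rest itself was at 74.1 ± 16.6 CPM in AHRKO and 97.9 ± 12.7 CPM in WT tumours, a log2 fold change of -0.40 ± 0.15 that did not pass (adjusted p = 0.0540, edgeR). Smarce1, a chromatin remodelling subunit, fell by 0.44 (adjusted p = 0.0014, edgeR), Sin3b, a corepressor, by 0.61 (adjusted p = 0.00193, edgeR) and Smarca4, the remodelling ATPase, by 0.46 (adjusted p = 0.00423, edgeR) on the log2 scale. Rcor1 and Rcor2, the CoREST proteins, fell by 0.44 and 0.93 and Kdm1a, the demethylase they bind, by 0.29 on the log2 scale. Ctdsp1, a small phosphatase that joins REST complexes, was at 166 ± 10.0 CPM in AHRKO and 123 ± 4.07 CPM in WT tumours, a log2 fold change of 0.44 ± 0.06 (adjusted p = 0.00061, edgeR). L3mbtl2 also rose. Only 1 gene of the list rose when any of WT replicates 2, 4, 5 or 6 or AHRKO replicates 2 or 5 was left out.

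Neuron markers were low and mixed. Of 26 listed, 8 were tested, Nefl, Ret and Uchl1 fell (37.5%) and Map2 and Slc17a6 rose (25.0%), shares that rest on few genes. Of all tested genes 13.6% fell and 15.9% rose. Slc18a3 had 0 counts in all libraries, and the 18 that were not tested reached at most 1.25 CPM in any library (Phox2a). The summed markers ran from 99.9 to 178 CPM in AHRKO and from 99.0 to 203 CPM in WT tumours, so the groups overlapped, and most of the sum was Tubb3, a tubulin of neurons that many tumours also make, at 109 ± 29.2 CPM in AHRKO and 105 ± 41.3 CPM in WT tumours (adjusted p = 0.870, edgeR). Nefl, a neurofilament subunit, was at 0.581 ± 0.493 CPM in AHRKO and 7.28 ± 1.99 CPM in WT tumours, a log2 fold change of -3.64 ± 0.55 (adjusted p = 0.000867, edgeR). Ret, a receptor tyrosine kinase, fell by 2.52 and Uchl1, a deubiquitinase, by 2.15 on the log2 scale, and Map2 and Slc17a6 rose by 0.57 and 1.44.

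Of the neuroendocrine and islet markers, 4 of 20 were tested, and Ptprn fell (25.0% of the few tested) and 0 rose. Their summed level, 71.6 to 133 CPM in AHRKO samples against 152 to 255 CPM in WT samples, was mostly Ptprn, a protein of secretory granule membranes, at a mean of 77.4 CPM in AHRKO and 175 CPM in WT tumours, a log2 fold change of -1.17 ± 0.19 (adjusted p = 0.00117, edgeR). Celf4, Chga and Pcsk1 had log2 fold changes of -0.05, 0.42 and 0.56 and were not called (adjusted p = 0.914, 0.753 and 0.323, edgeR), and the median of the 4 was 0.18. The 16 untested genes reached at most 1.72 CPM (Insm1), and Neurod1, Ins1, Ins2, Sst and Ppy had 0 counts in all 12 libraries. Of 15 Schwann cell and glia markers 11 were tested, 2 rose (18.2%) and 0 fell. S100b and Pmp22 rose by 2.29 and 1.19 on the log2 scale, and sums were 227 to 311 CPM in AHRKO and 172 to 283 CPM in WT tumours. The part of neuroendocrine cells in the difference of the 5 genes was not tested.

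The genes beside the 5 on their chromosomes were examined for a shared regional change. Within 1 Mb, 113 genes were tested, 23 rose (20.4%) and 20 fell (17.7%), beside 15.9% and 13.6% of all tested genes, and the median log2 fold change was 0.03. The count of risen genes was 15 without WT replicate 5. Around Nptx1, 7 of 41 rose and 9 fell; around Syt14, 3 of 22 rose and 3 fell; around Gprin1, 13 of 40 rose and 4 fell. Erc2 had 10 tested neighbours, of which 4 fell, with a median of -0.33, and Klhl1 had no tested neighbour within 1 Mb. The medians of chromosomes 11, 1, 14 and 13 were -0.07, 0.06, 0.03 and -0.01.

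The closest neighbours moved in different directions. Cdhr2, a protocadherin of the intestinal brush border, lies tail to tail with Gprin1, on the plus strand at chromosome 13, 54701461 to 54736662, and the annotated ends are 9 bases apart. Its lowest, median and highest levels were 0.356, 1.73 and 6.21 CPM in AHRKO tumours against 23.8, 46.6 and 81.3 CPM in WT tumours, without overlap, and its log2 fold change was -4.43 ± 0.55 (adjusted p = 0.000272, edgeR). Without a stated strand setting for the counting, Cdhr2 reads that ran past its annotated end into Gprin1 cannot be told apart from Gprin1 reads. The lowest WT libraries came in the same order for Cdhr2 and Gprin1, with 23.8 and 3.78 CPM in replicate 3, 35.3 and 7.45 CPM in replicate 2, and 45.5 and 9.52 CPM in replicate 6. The highest differed, with 81.3 CPM of Cdhr2 and 9.58 CPM of Gprin1 in WT replicate 1, and 47.7 and 11.8 CPM in WT replicate 5. Among AHRKO libraries, replicate 1 had the lowest Cdhr2, 0.356 CPM, and the highest Gprin1, 0.771 CPM. AHRKO replicate 4 had the highest Cdhr2, 6.21 CPM, with 0.228 CPM of Gprin1. Those Gprin1 values rest on 13 and 4 counts, and the part of shared reads was not tested. On the other side of Gprin1, Tspan17, at a distance of 39.5 kb, rose by 0.56 on the log2 scale (adjusted p = 0.0118, edgeR).

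Both nearest neighbours of Erc2 fell, Ccdc66 at 114 kb to 12.5 ± 1.93 CPM in AHRKO against 24.8 ± 2.61 CPM in WT tumours (log2 fold change -0.99 ± 0.12, adjusted p = 0.000272, edgeR) and Wnt5a, a secreted Wnt ligand, at 26.2 kb to a mean of 42.3 CPM in AHRKO against 76.8 CPM in WT tumours (log2 fold change -0.86 ± 0.23, adjusted p = 0.0156, edgeR). Beside Nptx1, Endov and Rptor fell by 0.44 and 0.40 on the log2 scale (adjusted p = 0.0069 and 0.0074, edgeR). Beside Syt14, Sertad4 rose by 1.12 (adjusted p = 0.00656, edgeR) and Diexf had a log2 fold change of 0.09 (adjusted p = 0.531, edgeR). The nearest tested genes to Klhl1 were Dach1, 1268 kb away, with a log2 fold change of 0.51 (adjusted p = 0.451, edgeR), and Tdrd3, 8557 kb away, which fell by 0.38 (adjusted p = 0.00731, edgeR). Fgfr4, a fibroblast growth factor receptor 402766 bases from Gprin1, was picked out after its values were seen. It was at 0.351 ± 0.323 CPM in AHRKO and 17.9 ± 5.18 CPM in WT tumours, a log2 fold change of -5.63 ± 0.57 (adjusted p = 0.000102, edgeR).

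**Figure D5:**
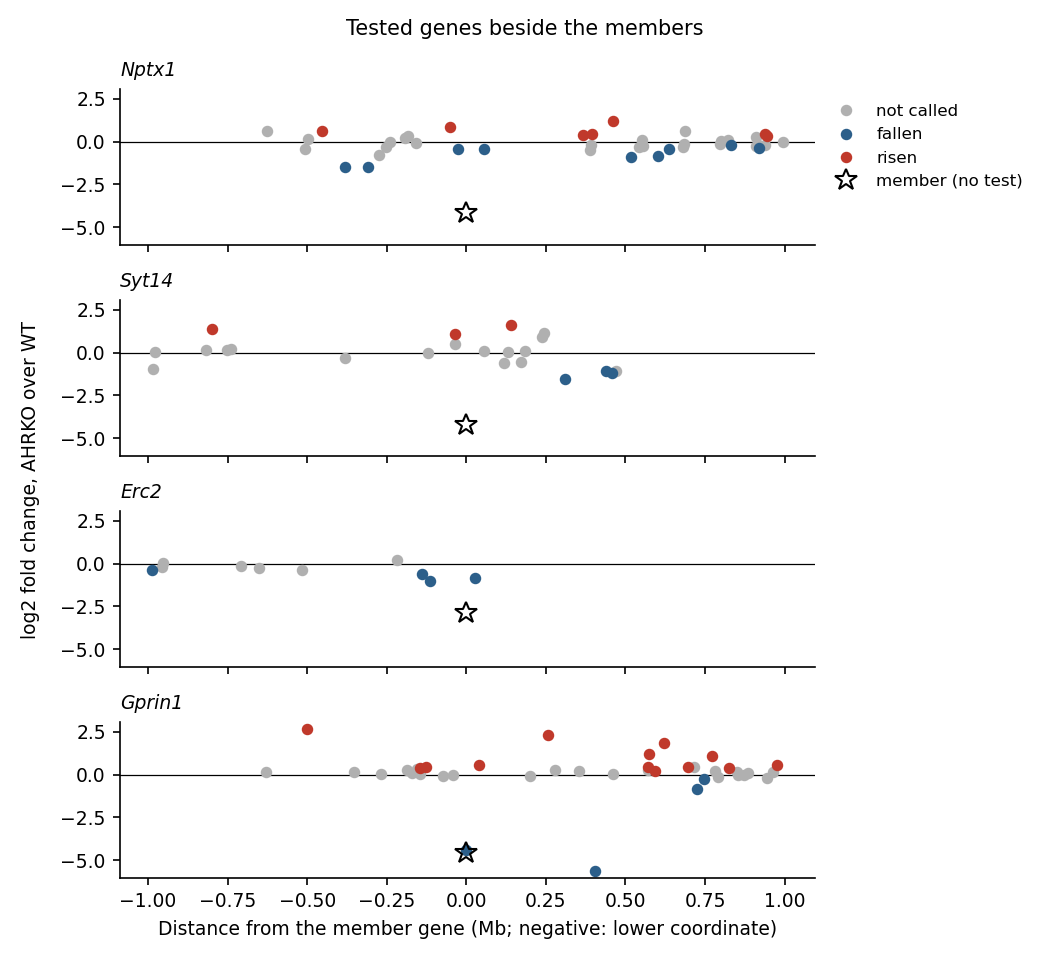
Log2 fold change, AHRKO over WT, of each tested gene within 1 Mb of Nptx1, Syt14, Erc2 and Gprin1, against its distance (Mb), coloured by call at an adjusted p under 0.05 (edgeR), with stars for the chosen genes; Klhl1 had no tested neighbour in that window. Points of both directions surround Nptx1, Syt14 and Gprin1, and Cdhr2 at -4.43 lies on the Gprin1 star.

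Genes whose levels followed the 5 most closely over the 12 libraries were named by Pearson's r of log2 CPM. The 5 themselves, pseudogenes, genes without a symbol and predicted genes with only a model number or clone name were passed over. The r is a description without a p-value, since r over both groups is mostly the difference between them. For Nptx1 they were Tmx1, Copb2 and Cdkn2a, each at r = 0.98. For Syt14 they were Ppp2cb, Ip6k2 and Eno1b at 0.98, and for Erc2 Zfp697, Eno1b and Glp1r at 0.98. The sequence of Eno1b is almost that of Eno1, and reads may be shared between them. For Gprin1 they were Homer3 at 0.99 and Ppp2r3c and Trim13 at 0.98, and for Klhl1 Ip6k2, Cbarp and Edc3 at 0.98. Homer3, a postsynaptic scaffold of glutamate receptors, was at 24.2 ± 3.04 CPM in AHRKO and 50.5 ± 8.04 CPM in WT tumours, a log2 fold change of -1.06. The differences of these genes were unequal in size, from -0.39 for Copb2 to -6.75 for Glp1r, the receptor for glucagon-like peptide 1, which was at 0.431 ± 0.200 CPM in AHRKO and 46.2 ± 17.6 CPM in WT tumours.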

How the data were processed

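RNA from 6 AHRKO and 6 WT tumour samples was sequenced on Illumina instruments. The submitters' processing notes name HISAT2, SAMtools, HTSeq and DESeq2 as tools and mm10 as the build; versions, annotation and strand setting are not stated there. The authors deposited raw counts per gene, which were checked to be whole numbers. Symbols and coordinates came from GENCODE M21, which matched 42462 of 43432 genes.

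Genes were kept by filterByExpr, scaled by TMM and compared, AHRKO over WT, with the quasi-likelihood test of edgeR 4.0.16 in R 4.3.3, two-sided, with Benjamini-Hochberg adjustment over 15449 genes. CPM used scaled totals, and log2 CPM a prior count of 2. The floor for a level of 0 was 3 counts, and intervals or floors cover counting error only. No libraries of a group agreed within sampling noise (lowest chi-squared per degree of freedom 13.6). Correlations used exact permutation in scipy 1.17.1. Depth, 14772343 to 35881469 counts per library, limits the precision of values near 1 CPM.

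Alternatives were DESeq2 1.42.0, limma-voom with sample quality weights (limma 3.58.1), RLE scaling and no filter. Others were a filter of at least 10 counts in 6 libraries (15607 genes, slightly more than filterByExpr kept) and a block for the replicate number. Each library was also left out in turn. The procedure was tested on simulated data. Named genes were the 5, Ahr, up to 4 genes with the smallest p per pathway list, the nearest tested protein-coding gene on each side, the 3 closest in r, and in marker lists the 3 most abundant and those at 0. Other genes named beside a count of calls, or as kin of the 5, were chosen after their values were seen. The 5 genes and all lists were chosen with earlier results of these data known. A listed gene without a match in the table was not analysed here. Some results on marker genes are not reported here.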

Additional observations from a re-analysis of the deposited data

Results flagged for a closer look

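In groups of 6 samples, a sample was picked out when its gap to the nearest other sample exceeded 0.625 of the range of its group. Of 66 groups of 33 named genes, 5 were picked out, and chance picks out about 1 in 20 groups. AHRKO replicate 1, which stood apart in cell type markers, was the highest AHRKO sample for 3 genes. Gprin1 was at 0.771 CPM there and at 0.206 to 0.386 CPM in the other AHRKO samples. Cacng7 was at 20.1 CPM there and at 1.88 to 7.60 CPM in the others, and Sytl2 at 20.6 CPM there and at 5.60 to 9.97 CPM in the others. Rims2 was at 14.7 CPM in WT replicate 4, above the other WT samples at 8.39 to 10.6 CPM. Syngr2 was at 92.3 CPM in WT replicate 5, below the other WT samples at 106 to 113 CPM.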

How the results depend on the processing

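The log2 fold changes of the 5 genes kept their direction in all 18 alternatives each. Leaving out each library gave -4.35 to -3.99 for Nptx1, -4.36 to -4.03 for Syt14, -3.02 to -2.78 for Erc2, -4.94 to -4.46 for Gprin1 and -6.01 to -5.52 for Klhl1. For the 28 genes named by smallest p in the pathway lists, 497 of 504 values kept their call, 3 lost it, 4 gained it and 0 changed sign. The other named genes, such as neighbours, markers and the closest in r, were not part of this count. Cacng7 (adjusted p = 0.0196, limma-voom; 0.0115 without AHRKO replicate 1 by edgeR), Nptx2 (0.0343 without AHRKO replicate 1) and Cacng4 (0.0408 without WT replicate 4) gained it. RLE scaling and a filter of 10 counts in 6 libraries, which kept 15607 genes against 15449, moved no count by over 1.5 times, and no filter stricter overall was run. With DESeq2 the neurite list had 2 risen genes. With limma-voom there were 2 fallen pentraxin and AMPA receptor genes, 10 fallen synaptotagmins, 8 fallen vesicle and SNARE genes, and 2 risen and 7 fallen neurite genes. With no filter there were 3 risen vesicle and SNARE genes, 1 risen REST complex gene and 15 risen genes beside the 5. The cause of these changes was not tested.

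Same-numbered samples were not more alike than others: their deviations correlated at -0.47 to 0.03, and 0 of 6 numbers matched best with themselves. This does not settle whether the numbers mark a shared animal or batch, since the deviations also hold differences in cell type markers. With the replicate block, 1114 genes rose and 1240 fell over all genes. Under the block 0 pentraxin genes fell, 1 synaptotagmin rose, 0 active zone genes rose and 3 fell, 2 vesicle and SNARE genes rose and 3 fell, 2 neurite genes fell, 4 kelch genes fell, 1 REST complex gene rose, and 9 genes beside the 5 rose and 13 fell. Gria4, Rims2 and Dpysl3 had adjusted p of 0.0640, 0.0503 and 0.0643 with the block (edgeR).

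Leaving out each library gave 1822 to 2980 risen and 1632 to 2778 fallen genes. In the lists it gave 1 to 4 fallen pentraxin genes, 1 to 3 risen active zone genes, 2 to 6 risen and 3 to 7 fallen vesicle and SNARE genes, 1 to 3 risen neurite genes, 1 to 2 risen REST complex genes, and 15 to 22 risen genes beside the 5. Depth limits the AHRKO levels, which rest on 29 to 182 counts per gene over 6 libraries.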
